A study of Caenorhabditis elegans with 7 samples.

Results

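The genes of the vacuolar proton pump, the cathepsin-type proteases and the LAMP-type membrane proteins of Caenorhabditis elegans were followed in worms fed the cocoa peptide 13L. They were taken by symbol from the annotation of the array: every gene whose symbol starts with vha-, cpr-, cpl-, cpz-, asp- or lmp-, plus unc-32, provided that a probe set names it alone. This gave 47 of the 17118 genes with such a probe set, namely 9 genes of the V1 sector, 8 of the V0 sector, 2 accessory subunits, 8 cpr genes, 3 cpl and cpz genes, 15 asp genes and 2 lmp genes. A gene with more than 1 such probe set was represented by the brightest over all arrays.

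The worms were of the wild-type strain N2 (Bristol), synchronized and kept at 20°C from the egg for 3 days, until they were young adults. The control worms grew on nematode growth medium (NGM), and the treated worms grew on the same medium with 13L, a synthetic peptide of cocoa protein origin, at 1 µg/mL. RNA of whole worms was hybridized to 1 Affymetrix C. elegans Genome Array per sample. There were 4 NGM arrays, titled SL1, SL5, SL9 and SL69, and 3 arrays of worms on 13L, titled SL4, SL8 and SL12. The methods describe biological replicates, 4 of them per condition. Any further 13L array was not analysed here, and the labels do not say which samples came from separate cultures, so p-values measure only the spread between these arrays.

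The V-ATPase is a rotary pump that acidifies lysosomes and endosomes. Its cytosolic V1 sector hydrolyzes ATP and thereby turns the ring of c subunits in the membrane sector V0, which carries protons past the a subunit. The cathepsins are proteases that work in the acid interior this pump provides: the cpr, cpl and cpz genes encode cysteine proteases of the cathepsin B, L and Z types, and the asp genes encode aspartyl proteases related to cathepsin D. In C. elegans many of them are made in the intestine, where they degrade food and endocytosed protein, and LAMP-type glycoproteins line the lysosomal membrane.

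All values are on the deposited log2 scale, so a difference of 1 is a factor of 2, and values of different probe sets cannot be ranked against each other. The arrays had medians between 1.01 and 1.06 and correlated with each other at 0.982 to 0.995 over all probe sets. The brightest of 5 yeast control probe sets, which should find no worm RNA, averaged 0.74. By this mark 42 of the 47 genes were measured above background, and the exceptions were asp-7, asp-9, asp-11, asp-15 and asp-19. The reference gene table, of assembly WBcel235, lists 52 genes of these families. The 5 without a probe set of their own are vha-2, vha-3, asp-2, asp-16 and asp-18. In RNA of whole animals, fewer cells of a type and less RNA per cell cannot be told apart.

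The differences between the diets were small for the pump and for the proteases. Of the 47 genes, 22 had a positive and 25 a negative difference (13L minus NGM), with a median of -0.02, beside 0.001 over all genes. For the 42 genes above the yeast controls the median was -0.015, beside -0.013 over all genes above them. The differences ran from -0.42 for cpr-3, a factor of 0.748, to 0.25 for vha-13, a factor of 1.19. No gene passed limma's test with Benjamini-Hochberg adjustment at 0.05: 0 of the 47, and 0 of the 22548 probe sets tested (0%), with adjusted p of 0.94 or more for all 47. At an unadjusted p under 0.05, 1 gene was higher on 13L, against 2.54% of all probe sets, and 0 were lower, against 2.57%. In 1 gene, again vha-13, the 3 arrays on 13L lay above all 4 NGM arrays, which 3.31% of all probe sets also showed. In 0 genes did they lie below all NGM arrays, against 2.77% of all probe sets.

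The standard error of the difference was between 0.083 and 0.344, and under 0.2 in 40 of the 47 genes. The 95% interval lay within a factor of 2 in either direction for 46 genes. The exception was cpr-3, whose interval ran from -1.20 to 0.36. These intervals cover single genes and are not corrected for the number of genes.

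**Figure D1:**
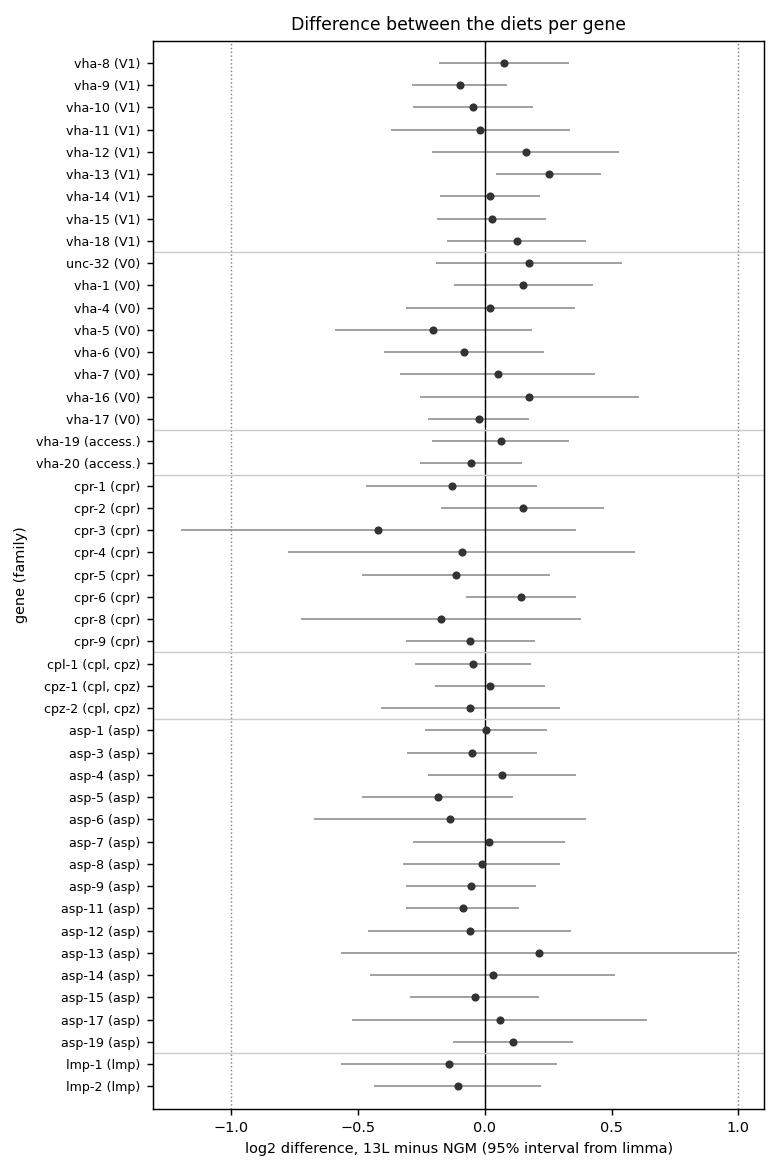
Log2 difference between the diets (13L minus NGM, horizontal axis) for each of the 47 genes, grouped by family. Points are differences of group means (4 NGM and 3 13L arrays), bars are 95% intervals from limma, and dotted lines mark -1 and 1. The vha-13 interval, 0.04 to 0.46, lies to the right of 0, and the cpr-3 interval, from -1.20, crosses the left dotted line.

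Among the 9 V1 genes, 6 differences were positive and 3 negative, with a median of 0.03 and a range from -0.10 to 0.25. The gene vha-13 encodes the A subunit, which holds the catalytic ATP sites. It read 5.76, 5.81, 5.72 and 5.73 on the NGM arrays SL1, SL5, SL9 and SL69, and 6.07, 5.86 and 6.09 on the 13L arrays SL4, SL8 and SL12. The lowest 13L array, SL8, lay 0.05 above its neighbour in title number, SL5, while SL4 and SL12 lay 0.31 and 0.37 above SL1 and SL9. The group means were 5.75 ± 0.04 (SD, n = 4) and 6.01 ± 0.13 (SD, n = 3), a difference of 0.25 with a standard error of 0.092. limma gave an unadjusted p of 0.0227 and an adjusted p of 0.944, and the two-sided exact permutation p was 0.0571, the smallest that 3 against 4 arrays can give.

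The higher reading of vha-13 rested on the brightest of its 3 probe sets. The second read 5.10, 5.47, 5.53 and 5.45 on NGM and 5.58, 5.17 and 5.47 on 13L, so that the groups overlapped (difference 0.02, limma unadjusted p = 0.911). The dimmest read 1.95, 1.97, 2.06 and 1.98 on NGM and 1.80, 1.95 and 1.93 on 13L, with a difference of -0.10 and an unadjusted p of 0.293 by limma. Averaging the 3 probe sets gave vha-13 a difference of 0.06 (limma unadjusted p = 0.528). Which probe set best follows the vha-13 transcripts was not tested.

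**Figure D2:**
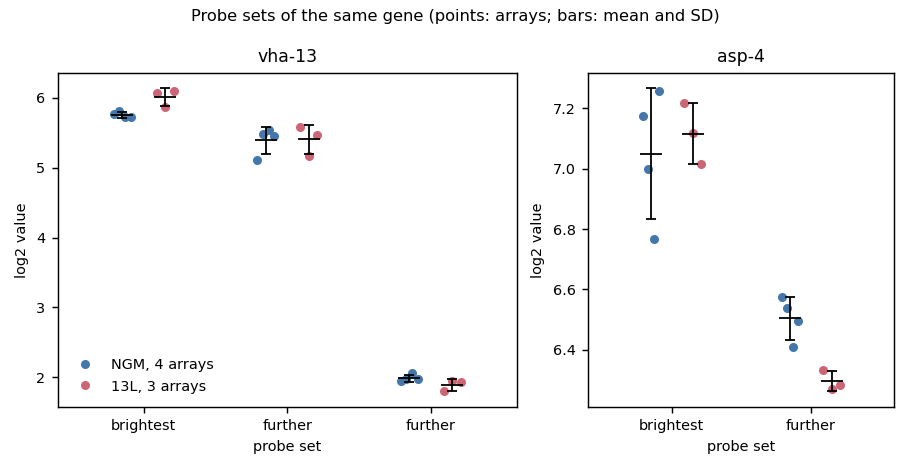
Log2 value (vertical axis) on each array for the probe sets of vha-13 and asp-4, the brightest first. Points are arrays (4 NGM, 3 13L) and bars are group means with SD. The brightest vha-13 probe set separates the groups upward and the further asp-4 probe set separates them downward, while the other probe sets of both genes overlap.

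The B subunit, which forms the ATP-hydrolyzing ring together with A, is encoded by vha-12. It read 6.32, 6.45, 6.79 and 6.79 on NGM and 6.56, 6.63 and 7.05 on 13L (difference 0.16, limma unadjusted p = 0.347). In the central stalk, vha-9, the F subunit, had the most negative V1 difference. Its values were 7.43, 7.52, 7.49 and 7.54 on NGM and 7.36, 7.46 and 7.36 on 13L, a difference of -0.10 with a limma unadjusted p of 0.260. The arrays of the groups overlapped by a small margin, since SL8 lay above SL1. The D subunit gene vha-14, also of the central stalk, differed by 0.02. The peripheral stalk genes vha-8 (E) and vha-10 (G) differed by 0.08 and -0.05. The C subunit gene vha-11 differed by -0.02 on its brightest probe set and by 0.26 (limma unadjusted p = 0.111) and 0.19 (limma unadjusted p = 0.102) on its further ones. The H subunit genes vha-15 and vha-18 differed by 0.03 and 0.13.

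The V0 sector held 5 positive and 3 negative differences, with a median of 0.04 and a range from -0.20 to 0.17. The a subunits form the proton path and come as 4 isoforms with different tissues. In C. elegans, vha-6 serves the intestine, vha-5 the hypodermis and the excretory canal, vha-7 the hypodermis and other epithelia, and unc-32 the neurons among other tissues. The intestinal vha-6 read 5.64, 5.86, 6.01 and 5.996 on NGM and 5.75, 5.58 and 6.06 on 13L, so the ranges of the groups overlapped (difference -0.08, limma unadjusted p = 0.568). The values of vha-5 were 2.30, 2.49, 2.27 and 2.31 on NGM and 1.77, 2.07 and 2.58 on 13L. SL4 and SL8 lay below every NGM array and SL12 above, for a difference of -0.20 (limma unadjusted p = 0.266).

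For vha-7 the values were 5.48, 5.25, 4.92 and 5.46 on NGM and 5.50, 5.46 and 5.02 on 13L, with the lowest reading of each diet on SL9 and SL12 (difference 0.05, limma unadjusted p = 0.773). The values of unc-32 were 4.13, 4.15, 4.03 and 4.37 on NGM and 4.70, 4.32 and 4.0005 on 13L. SL4 was its highest array and SL12 its lowest, both on 13L, and the difference of 0.17 had a limma unadjusted p of 0.315. No isoform was separated by diet, and the 4 isoforms had differences of both signs.

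The c subunits build the rotating ring. The gene vha-1 read 6.78, 6.82, 7.01 and 7.19 on NGM and 7.05, 7.02 and 7.23 on 13L. Only SL69 among the controls exceeded SL4 and SL8, and the difference was 0.15 (limma unadjusted p = 0.243). A further vha-1 probe set differed by 0.01. The gene vha-4, a c'' type subunit, read 6.31, 6.65, 6.74 and 6.85 on NGM and 6.47, 6.64 and 6.87 on 13L, a difference of 0.02. The other c subunit genes, vha-2 and vha-3, share 4 probe sets that cannot separate them. The brightest read 9.002, 8.95, 8.88 and 8.94 on NGM and 8.64, 8.90 and 8.86 on 13L, where SL8 alone came into the range of the controls (difference -0.14, limma unadjusted p = 0.161). Of the other shared probe sets, 2 differed by -0.04 and -0.13. The last read 4.94, 4.49, 4.97 and 3.01 on NGM and 4.22, 3.75 and 4.96 on 13L, with SL69 far below every other array. Its difference was -0.04 (limma unadjusted p = 0.930), and with arrays of neighbouring title numbers as a replicate block, where SL69 does not enter, it was -0.49 (limma unadjusted p = 0.0122, adjusted p = 0.548).

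The d subunit couples the central stalk to the ring and is encoded by vha-16. It read 6.03, 5.99, 5.47 and 6.31 on NGM and 6.26, 6.24 and 5.88 on 13L, a difference of 0.17 with a limma unadjusted p of 0.383. SL9 and SL12 were the low arrays of their groups. The small e subunit gene vha-17 differed by -0.02. Of the accessory subunits, vha-19 is of the Ac45 type. It read 4.71, 4.82, 4.48 and 4.90 on NGM and 4.76, 4.92 and 4.70 on 13L (difference 0.06). The other accessory gene, vha-20, read 6.58, 6.56, 6.61 and 6.42 on NGM and 6.55, 6.50 and 6.42 on 13L (difference -0.05). The arrays of both diets overlapped in both genes.

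The array titles fall into runs of numbers, from which 3 pairs of neighbours were formed. Over all probe sets, deviations from the group means correlated at 0.529 for SL1 and SL4 and at 0.537 for SL9 and SL12. For SL5 and SL8 the correlation was weaker, at 0.156. Whether partners were more alike than arrays of different pairs was not tested. Each of these pairs holds both diets. Compared within the pairs, 9 of the 47 genes were higher on 13L in all 3 pairs, against 14.6% of all probe sets, and 9 were lower in all 3, against 14.3%. The higher ones were vha-1, vha-7, vha-8, vha-12, vha-13, vha-16, vha-19, cpr-6 and asp-4, so 7 of them were among the 19 V-ATPase genes. The lower ones were vha-9, vha-10, vha-20, cpr-8, cpl-1, asp-3, asp-5, asp-6 and lmp-2, of which 3 belong to the V-ATPase. These counts rest on the brightest probe set of each gene. The further asp-4 probe set and the dimmest vha-13 one were lower on 13L in all 3 pairs. The second vha-13 and the further vha-1 probe sets were mixed. Among the lower genes, the further asp-5 probe set was also lower in all 3 pairs. Those of vha-20, cpl-1, asp-6 and lmp-2 were mixed. For vha-16 the differences within pairs were 0.23, 0.25 and 0.41. For vha-1 they were 0.27, 0.20 and 0.22. The vha-12 differences, at 0.25, 0.18 and 0.26, were as even.

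With these pairs as a replicate block, 3 genes were higher at a limma unadjusted p under 0.05, where 3.82% of all probe sets were. They were vha-16 with a difference of 0.30 (limma unadjusted p = 0.0196), vha-1 with 0.23 (limma unadjusted p = 0.0463) and vha-12 with 0.23 (limma unadjusted p = 0.0483). The further vha-1 probe set had the opposite sign in this fit, at -0.06 (limma unadjusted p = 0.604). In the same fit vha-13 had a difference of 0.24 with an unadjusted p of 0.0571. One protease, asp-5, was lower, at -0.27 (limma unadjusted p = 0.0321), where 4.06% of all probe sets were. The further asp-5 probe set had a smaller difference of the same sign in this fit, -0.13 (limma unadjusted p = 0.232). None of these passed the adjustment, since the lowest adjusted p among the 47 genes was 0.567. The median over the 19 V-ATPase genes was 0.09 with the block and 0.03 without it, and SL69, which has no partner, does not enter the blocked difference. Without SL69 and with no block, the median of the V-ATPase genes was also 0.09. This equality was fixed in advance, because complete pairs give the same difference of means with or without the block.

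The cathepsin B-like cpr genes had 2 positive and 6 negative differences with a median of -0.10. The gene cpr-6 had the largest test statistic of the family. It read 8.92, 8.79, 8.72 and 8.78 on NGM and 9.06, 8.83 and 8.95 on 13L, with SL8 below SL1 and the other 13L arrays above every control (difference 0.14, limma unadjusted p = 0.169). The most negative difference of all 47 genes, that of cpr-3, came with wide scatter. Its values were 2.18, 1.47, 2.70 and 1.93 on NGM and 2.43, 1.23 and 1.29 on 13L, so that SL4 lay above SL1, SL5 and SL69 and SL8 and SL12 below all of them. The difference of -0.42 had a standard error of 0.344 and a limma unadjusted p of 0.254. A further cpr-3 probe set differed by -0.37. The remaining cpr genes had differences of -0.13 (cpr-1), 0.15 (cpr-2), -0.09 (cpr-4), -0.11 (cpr-5), -0.17 (cpr-8) and -0.06 (cpr-9).

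The cathepsin L gene cpl-1, needed for yolk protein processing in the embryo, read 8.80, 8.73, 8.55 and 8.73 on NGM and 8.77, 8.67 and 8.53 on 13L (difference -0.05, limma unadjusted p = 0.654). Its arrays of both diets lay in the same order, from SL1 and SL4 down to SL9 and SL12. The cathepsin Z-like genes were as flat. The values of cpz-2 were 4.39, 3.99, 4.06 and 4.14 on NGM and 4.07, 3.79 and 4.40 on 13L (difference -0.06), and cpz-1 differed by 0.02.

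The 15 aspartyl protease genes divided into 7 positive and 8 negative differences with a median of -0.01. The gene with the largest test statistic was asp-5. It read 8.71, 8.59, 8.54 and 8.30 on NGM and 8.57, 8.28 and 8.19 on 13L, where SL9 and SL69 lay below the highest 13L array (difference -0.19, limma unadjusted p = 0.189). The second was asp-19, one of the genes below the yeast control mark. Its values were 0.54, 0.56, 0.39 and 0.36 on NGM and 0.41, 0.62 and 0.69 on 13L, a difference of 0.11 with a limma unadjusted p of 0.312. At this level the reading cannot be told from background.

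The 2 probe sets of asp-4, a cathepsin D-like protease, differed in sign. The brighter one read 7.17, 6.998, 6.77 and 7.26 on NGM and 7.22, 7.12 and 7.01 on 13L, within the range of the controls (difference 0.07, limma unadjusted p = 0.614). The other read 6.58, 6.54, 6.41 and 6.49 on NGM and 6.33, 6.27 and 6.28 on 13L. All its 13L arrays lay below all NGM arrays, with a difference of -0.21, a limma unadjusted p of 0.0361 and an adjusted p of 0.944. With the replicate block its unadjusted p was 0.0687 by limma. Among all 14 further probe sets of 12 of the 47 genes, this was the only one with an unadjusted p under 0.05, and 7 of the 14 had the sign of the brightest probe set. The other asp genes differed by at most 0.21 in size, the value of asp-13. The intestinal protease gene asp-1 had a difference of 0.00, and asp-3, a relative of asp-4, one of -0.05.

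The LAMP-type gene lmp-1, whose product is a common marker of lysosomal membranes, read 6.78, 6.52, 6.34 and 7.12 on NGM and 6.79, 6.51 and 6.34 on 13L. On this probe set the 3 pairs agreed within 0.01, and the difference of -0.14 (limma unadjusted p = 0.467) came from SL69, the highest array, which has no partner. With the replicate block its difference was 0.00. A further lmp-1 probe set read 5.72, 5.95, 5.90 and 6.10 on NGM and 5.65, 5.59 and 5.85 on 13L, a difference of -0.22 with a limma unadjusted p of 0.0904. There each 13L array lay below its partner, and the difference with the replicate block was -0.16 (limma unadjusted p = 0.189). The gene lmp-2 read 1.37, 1.46, 1.91 and 1.31 on NGM and 1.32, 1.41 and 1.48 on 13L (difference -0.11, limma unadjusted p = 0.474), where SL9 stood above the other arrays.

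Several proteases varied between arrays far more than between diets. The SD within groups had a median of 0.186 over all genes above the yeast controls, and 23 of the 42 measured genes exceeded it. At the steady end were vha-9, with an SD of 0.054, smaller than that of all but 1.20% of these genes, and vha-14 with 0.070. At the variable end were asp-13 and cpr-3, both with an SD of 0.586, larger than that of 97.6% of genes. They were followed by cpr-4 with 0.509, larger than that of 96.5%. The median SD was 0.124 in the V1 sector, 0.234 in V0, 0.238 among the cpr genes and 0.185 among the asp genes.

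**Figure D3:**
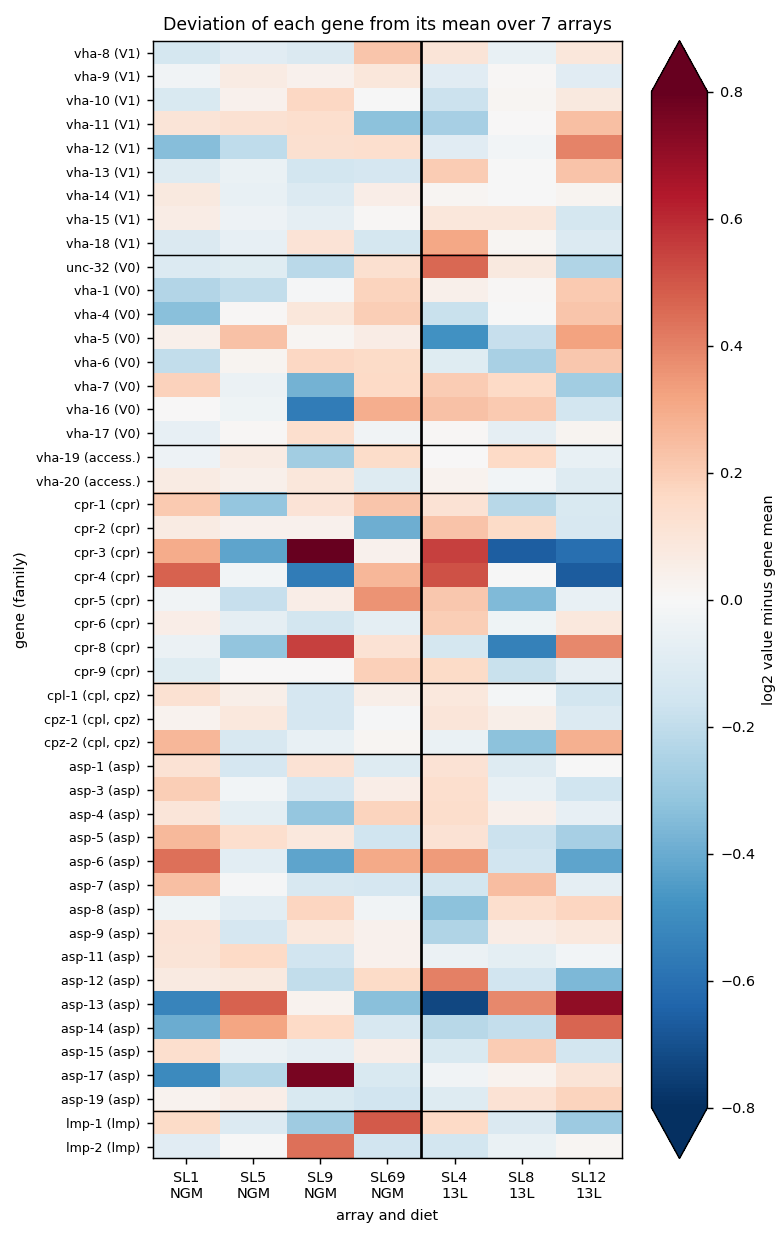
Deviation of each of the 47 genes (rows, by family) from its own mean over 7 arrays, in log2 units (colour), with the NGM arrays left and the 13L arrays right of the black line. Most V1 rows are pale, with a median SD within groups of 0.124, while cpr-3, cpr-4, asp-6 and asp-13 hold deep colours of both signs within each diet.

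Some of the variable genes differed between the pairs of title numbers. A limma F test of the 3 pairs with diet in the model, chosen after seeing the data, was passed at an adjusted p under 0.05 by 3 of the 47 genes and by 1.47% of all probe sets. At an unadjusted p under 0.05 it was passed by 14 of the 47 genes and by 14.1% of all probe sets. The pairs themselves were taken up because these same arrays deviated together, SL5 and SL8 only weakly. The p-values of the F test do not account for that choice. The 3 genes were cpr-4, cpr-8 and asp-6, all singled out once their values were known. The cathepsin B-like cpr-4 read 8.17, 7.68, 7.14 and 7.96 on NGM and 8.21, 7.69 and 7.03 on 13L, so that each 13L array repeated the value of its partner. The second pair lay 0.50 and the last pair 1.10 below the first, with an adjusted p of 0.00991 by limma, while the diets differed by -0.09. In the equally variable cpr-3 the partners lay further apart, with differences within the pairs of 0.25, -0.24 and -1.42. Its F test p by limma was 0.0440 unadjusted and 0.336 adjusted. For asp-17 the last pair differed by -0.66, with SL9 at 1.60. The mean of asp-17 over all arrays, 0.84, lay only a little above the yeast control mark of 0.74.

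The aspartyl protease asp-6 had the same order of arrays. Its values were 8.996, 8.47, 8.13 and 8.85 on NGM and 8.89, 8.397 and 8.13 on 13L, and the adjusted p was 0.0373 by limma. The second and the last pair differed from the first by -0.51 and -0.81, and the further asp-6 probe set by -0.35 and -0.55 (limma adjusted p = 0.210). In the reference gene table asp-6, asp-12 and asp-5 follow each other with no other protein-coding gene between them. The last pair differed from the first by -0.52 for asp-12 and by -0.28 for asp-5, and neither gene passed the adjusted F test.

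The gene cpr-8 had another order. It read 2.66, 2.39, 3.25 and 2.82 on NGM and 2.57, 2.17 and 3.09 on 13L, with the last pair highest (0.56 above the first), the second lowest (-0.34) and an adjusted p of 0.0264 by limma. Its neighbour cpr-5, with no protein-coding gene between, differed by -0.36 and -0.10 in the same comparisons. Only cpr-4 passed whenever an array outside the last pair was left out. The asp-6 call was lost without SL1 or SL4, and the cpr-8 call without SL5 or SL8. Without SL9 or without SL12 none of the 47 genes passed, with lowest adjusted p of 0.0690 and 0.0992 by limma, and the calls over all probe sets fell from 331 to 33 and 2. Culture, harvest and hybridization cannot be told apart as sources of the pairs, because the labels name none of them.

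Among the asp genes, asp-13 was lowest in the first pair and on SL69, and asp-14 on SL1 and SL4. The values of asp-13 were 5.89, 6.88, 6.44 and 6.08 on NGM and 5.68, 6.80 and 7.12 on 13L. The second and last pairs lay 1.06 and 1.00 above the first, with an adjusted F test p of 0.0649 by limma. The values of asp-14 were 5.90, 6.61, 6.46 and 6.17 on NGM and 6.07, 6.11 and 6.77 on 13L. Both genes were singled out once their values were known.

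Sperm markers differed between the same arrays. Of a list of 30, 23 were measured and 17 lay above the yeast control mark. Their median deviation was -0.92 on SL1, -0.87 on SL4 and -0.24 on SL69, and 0.77, 0.51, 0.47 and 0.84 on SL5, SL8, SL9 and SL12. Their summed linear level ran from 171 to 3981 on the NGM arrays and from 565 to 4354 on the 13L arrays. The defining spe-11, spe-12, spe-26, spe-38, spe-10 and fer-1 stayed at or near the yeast control level, while msp-3, a major sperm protein gene, read 3.24 on SL1 and 8.09 on SL5. On SL8 asp-14 was low, at 6.11, while the sperm median was high. The part of sperm RNA in the asp-13 and asp-14 values was not tested.

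**Figure D4:**
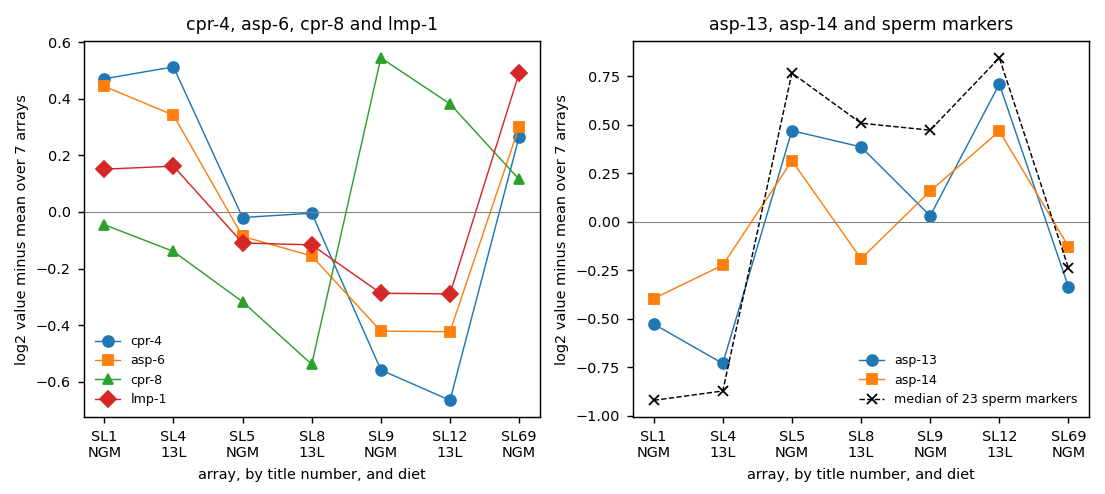
Log2 deviation from the mean over 7 arrays (vertical axis) on each array in order of title number (horizontal axis), left for cpr-4, asp-6, cpr-8 and lmp-1, right for asp-13, asp-14 and the median of 23 sperm markers. Paired arrays lie close together for cpr-4, which falls by 1.10 from the first to the last pair, while asp-13 differs by 0.68 within the last pair and asp-14 by -0.50 within the second.

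Markers of other tissues were also compared between the diets. The medians of their diet differences were -0.05 for 14 intestine genes, -0.13 for 10 hypodermis genes, -0.06 for 6 excretory canal genes, -0.20 for 15 neuron genes, 0.14 for 14 oocyte genes, -0.03 for 8 embryo genes, -0.08 for 3 coelomocyte genes and -0.17 for 4 pharynx genes, beside 0.29 for the sperm genes. The sperm median came with wide scatter. The median SD within groups was 0.696 for the sperm genes, 0.177 for the oocyte genes and 0.198 for the neuron genes. Positive and negative differences numbered 17 and 6 for sperm, 12 and 2 for oocyte, and 3 and 12 for neuron genes. No marker passed the adjusted limma test. At an unadjusted p under 0.05 by limma, 2 of the 14 oocyte genes were higher, against 2.54% of all probe sets. Lower were 2 of the 15 neuron genes and 1 of the 8 embryo genes, against 2.57% of all probe sets. No sperm marker passed at this level in either direction. The summed linear level of the intestine markers, the tissue of many of these proteases and of vha-6, was 4476 to 4617 on NGM and 4379 to 4631 on 13L. Most of this sum is vit-5 and vit-6, with log2 means of 10.88 and 10.90, so it tells little of the other intestine markers. The median deviation over the list ran from -0.12 on SL4 to 0.07 on SL12. All 14 intestine markers were above the yeast control mark.

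Other genes of the lysosome were read from a list of 60, of which 52 were measured. Of these, 20 had positive and 32 negative differences with a median of -0.07. None passed the adjusted test. At an unadjusted p under 0.05 by limma, 0 were higher, against 2.54% of all probe sets, and 1 was lower, against 2.57%. With the replicate block 1 was higher, against 3.82%, and 4 were lower, against 4.06%. The lower gene without the block was hlh-30, whose product is the worm homologue of TFEB, a transcription factor that switches on lysosomal genes in mammals and worms. It read 3.57, 3.38, 3.16 and 3.76 on NGM and 2.85, 2.98 and 3.25 on 13L, with SL12 inside the range of the controls. The difference was -0.44, with an unadjusted p of 0.0203 and an adjusted p of 0.944 by limma. The next most negative test statistics were those of laat-1, which exports lysine and arginine from the lysosome (-0.23, limma unadjusted p = 0.0524), and pcp-4, a carboxypeptidase gene (-0.41, limma unadjusted p = 0.0669). The most positive were those of the Rag GTPase gene raga-1 (0.37, limma unadjusted p = 0.0587) and the vesicle tethering genes vps-16 (0.22, limma unadjusted p = 0.0989) and vps-33.1 (0.24, limma unadjusted p = 0.199). In 1 gene of the list, the Rag GTPase gene ragc-1, the 13L arrays lay above all controls, which 3.31% of all probe sets also showed. The gap was less than 0.01 at the closest, and the difference was 0.04. In 0 genes of the list did the 13L arrays lie below all controls, against 2.77% of all probe sets.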

How the data were processed

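The authors' log2 values were used as deposited. Per the study's methods, the arrays had been background corrected with RMA and quantile normalized across arrays, and limma had been used for their test. The versions of these tools, not given in the sources used here, were left out. Quantile normalization makes arrays alike in their distribution, so a change shared by most genes would not be seen. Precision is limited by having 7 arrays. Of 22625 probe sets, 77 controls were left out and 22548 tested. The platform annotation gave 20766 of these 1 gene symbol, 887 several and 895 none. Genes were named only from probe sets with 1 symbol, and all 47 symbols are current in the reference gene table. Group differences were tested with limma 3.58.1 (lmFit and eBayes, two-sided) in R 4.3.3 over all probe sets with Benjamini-Hochberg adjustment, after the code had been checked on simulated data. Permutation tests and figures used Python 3.11.15 with SciPy 1.17.1 and matplotlib 3.10.9.

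Samples with neighbouring title numbers were taken as pairs because their deviations from the group means correlated over all probe sets, at 0.529 for SL1 and SL4, 0.156 for SL5 and SL8, and 0.537 for SL9 and SL12. The labels do not state this pairing, and such correlations between arrays of different pairs were not examined. Values on every array are given for members with an unadjusted p under 0.05 or groups that do not overlap, for the 2 members of each family with the largest absolute test statistic, and for the a subunits, the c subunits, cpl-1, cpr-6, asp-4 and lmp-1, with the 3 largest test statistics per direction from the other lysosome genes. The arrays of vha-12, vha-16, asp-6, asp-13, asp-14, cpr-4 and cpr-8 were added after their values were seen. The genes and lists were chosen with earlier results of these data known. Alternatives were leaving out each array, the replicate block, other variance models, other normalizations, a filter on dim probe sets, leaving out probe sets that match several transcripts, the mean over a gene's probe sets, and leaving out SL1 and SL69 together.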

Additional observations from a re-analysis of the deposited data

Results flagged for a closer look

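In the NGM group of 4 arrays, single arrays stood apart from the others in 3 of the 47 genes and in 1 of 18 further or shared probe sets, by Dixon's gap test at the 95% level, which chance passes in about 1 in 20 groups. On SL69, vha-8 read 6.83 and was high, vha-11 read 5.99 and was low, and cpr-2 read 0.50 and was low. This cpr-2 reading lay below the yeast control mark of 0.74. A dim further probe set of vha-11 read 1.01 on SL5 and was high.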

How the results depend on the processing

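No probe set, and so none of the 47 genes, passed the adjusted limma test of diet under any of 16 alternatives. The count of genes higher at an unadjusted p under 0.05 was 1, and it was 0 with probe sets averaged per gene, 3 with the replicate block, 0 without SL1 and SL69 (chosen with an earlier analysis known) and 0 without probe sets that match several transcripts, which left 25 of the genes. It was 1 when any single array was left out, but the gene was not always vha-13. In its place stood asp-13 without SL4, unc-32 without SL12 and, close to the yeast control mark, asp-17 without SL9. The count of lower genes was 0, and it was 1 with the replicate block and 0 to 1 with an array left out: cpr-3 without SL4 and vha-5 without SL12. The vha-13 difference stayed positive in all 16 alternatives, 0.21 to 0.32 with an array left out. It fell to 0.06 with probe sets averaged per gene. Without probe sets that match several transcripts it was 0.02, read on its second probe set. Over the alternatives its unadjusted limma p ran from 0.00954 to 0.909 and its adjusted p from 0.657 to 0.999. The unadjusted p was over 0.05 also without SL4 (0.0741), SL12 (0.0776) or SL9 (0.0501).

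The median difference of the V-ATPase genes was 0.0903 both with the replicate block and without SL69, an equality fixed in advance because both compare the same arrays. It was 0.0142 to 0.0903 with an array left out, and -0.0079 without probe sets that match several transcripts, so its sign turned there. Only vha-1, vha-5, vha-13, vha-14, vha-17 and vha-19 were left of the V-ATPase genes in that setting. Of these, vha-1, vha-13 and vha-14 were read on a dimmer probe set. The median of all 47 genes was 0.0260 without SL1 and SL69, and -0.04 to 0.01 with an array left out, so this sign was not settled either. The ranges were -0.04 to 0.02 for the asp genes and -0.15 to 0.02 for the cysteine proteases. The F test of pairs was passed by 7 genes with limma's trend and robust settings, where 741 of all probe sets passed, and by 0 to 3 with an array left out, where 2 to 454 did, against 331 with all arrays. The cause of these shifts was not tested, beyond the smaller number of arrays or genes where some were left out.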
